A study of Mus musculus with 6 samples.

Results

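Cells with an Ascl2 transcript and without an Il4 transcript were taken from single-cell libraries of ovalbumin-specific CD4+ T cells of mouse Peyer's patches. A barcode was kept with at least 500 detected genes, at most 10% mitochondrial UMIs (unique molecular identifiers, one per captured transcript), at least 1 UMI of Cd3e, Cd3d or Cd3g, and no UMI of Epcam, Krt8 or Cd79a. Of 2887 kept cells, 185 had at least 1 Ascl2 UMI and 0 Il4 UMIs. These 185 cells are called members here. They were chosen from 4803 barcodes in 4 libraries, with 105 members in mutant 1, 13 in mutant 2, 38 in WT 1 and 29 in WT 2.

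The study asked how TGF-beta signalling within T cells bears on follicular helper cells that arise against a food antigen. Mutant cells were heterozygous for an M318R knock-in of Tgfbr1 (TgfbrIWT/mut), an allele known from patients with Loeys-Dietz syndrome, and WT cells carried the unaltered gene. All donor cells came from OTII+/+RAG-/- mice, so they shared a transgenic receptor for ovalbumin, and all hosts were CD45.1 WT mice that drank 1.5% ovalbumin for 7 days. Donor cells were sorted from Peyer's patches (CD45.2+CD45.1-CD4+CD8-TCRβ+), with harvest on day 8, and each genotype had 2 libraries. The mutation was present only in the transferred T cells. The labels do not say whether each library was a separate animal, so a p-value here reflects only how these libraries vary, and that variation may be technical. Antibody tags were read in the WT libraries and not in the mutant libraries, so tagging and genotype cannot be told apart.

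T follicular helper (Tfh) cells enter B cell follicles through Cxcr5, the receptor for the follicular chemokine, and give help to B cells through Cd40lg and the cytokines Il21 and Il4. Ascl2 is a basic helix-loop-helix (bHLH) factor that in mouse T cells raises Cxcr5, lowers Ccr7 and Selplg, and acts together with Bcl6, the lineage factor of Tfh cells. Factors of this family bind E-box sequences as pairs with E proteins, and Id proteins hold E proteins off DNA.

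The members held 1945627 UMIs in all, which were 1064523 in mutant 1, 157106 in mutant 2, 405646 in WT 1 and 318352 in WT 2. Members were somewhat deeper than the rest. Their median UMIs per cell were 9916, 11961, 10680.5 and 9892 in mutant 1, mutant 2, WT 1 and WT 2, against 8310.5, 9140, 8800 and 8543 in the other kept cells. Their median mitochondrial share was 3.90%, 4.56%, 3.08% and 3.91%, against 3.69%, 3.18%, 2.80% and 3.28%. Scrublet called 33 doublets among kept cells and none of them was a member, which allows such calls in up to 1.62% of the members. Only 2 of the calls were in mutant 1, the library with most members. Doublets that Scrublet does not call are not covered by this bound. Of 62 barcodes shared between pairs of libraries, 4 were kept cells and 0 were members. A count of 12 further barcodes met the Ascl2 and Il4 rule but were dropped for an Epcam, Krt8 or Cd79a UMI.

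Members made up a larger share of kept cells in both mutant libraries than in both WT libraries. The share was 12.4% in mutant 1 (105 of 847 cells, exact 95% interval 10.3% to 14.8%) and 6.84% in mutant 2 (13 of 190, 3.69% to 11.4%). In WT 1 it was 3.07% (38 of 1236, 2.18% to 4.20%) and in WT 2 4.72% (29 of 614, 3.19% to 6.71%). The interval of mutant 2 overlapped those of both WT libraries, and that of mutant 1 overlapped neither. The intervals cover counting error only. Ascl2-positive cells with an Il4 UMI were 15.8% and 14.2% of kept cells in mutant 1 and mutant 2, against 5.18% and 8.47% in WT 1 and WT 2. A larger share in the mutant libraries was thus not particular to members. Ascl2 was already known to differ with genotype in these libraries, so the shares are a description with no test, and an exact permutation test of 2 libraries against 2 could not reach 0.05.

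**Figure D1:**
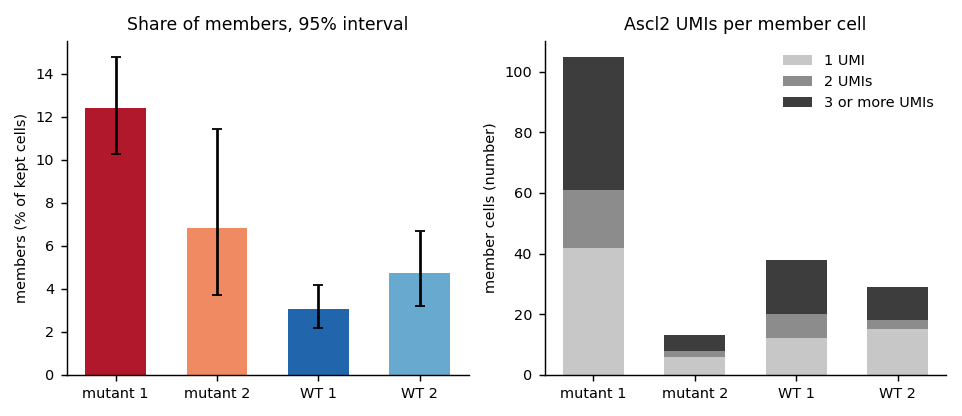
Left, members as a percentage of kept cells in each library, with exact 95% binomial intervals as error bars. Right, number of member cells by Ascl2 UMIs per cell. Mutant 1 held 105 of the 185 members, and cells with 1 Ascl2 UMI were present in every library.

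The call of an Ascl2 transcript rested on few molecules. Among members, 75 had 1 Ascl2 UMI, 32 had 2 and 78 had 3 or more. Outside the rule on the Ascl2 side lay 1883 kept cells with neither Ascl2 nor Il4. On the Il4 side, 99 Ascl2-positive cells had exactly 1 Il4 UMI and 178 had 2 or more. None of 41 B cell barcodes had an Ascl2 UMI, which allows up to 7.32%, against 462 of 2887 kept cells. Median depth of the B cell barcodes ran from 2329 to 6500 UMIs over the libraries, below the 8511 to 9154.5 of kept cells. An Ascl2 UMI was also seen in 2 of 24 epithelial barcodes (8.33%), of a tissue whose stem cells use the gene.

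The call of no Il4 transcript likewise turned on few molecules. Among all Ascl2-positive cells, 43.9%, 32.5%, 37.3% and 35.8% had no Il4 UMI in mutant 1, mutant 2, WT 1 and WT 2, and the Il4-positive ones had a median of 2 Il4 UMIs in each library. When each cell was thinned to 4000 UMIs, 185 cells again met the rule, of which 121 were members at full depth and 64 had had an Il4 UMI. Of the 178 members deep enough for thinning, 57 lost their Ascl2 UMIs. Thinned shares were 14.1%, 6.13%, 3.33% and 4.15% in the same order of libraries. "Il4 negative" therefore means no Il4 UMI at this depth.

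Most members carried Tfh genes that the rule did not use. Of Cxcr5, Bcl6, Pdcd1, Il21, Tox2, Maf and Icos, a member had a median of 6 of 7 detected. At least 5 of the 7 were seen in 162 of 185 members (87.6%), and 2 or fewer in 3 members. Cxcr5 was detected in 148 of 185 members and 931 of 2702 other kept cells, Bcl6 in 143 members and 923 others, and Pdcd1 in 168 and 1386.

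The genes proposed as markers alongside Ascl2 were chosen on these cells, so their levels are a description with no test. Levels are given as CPM, which are UMIs of a gene per 1000000 UMIs summed over the cells of a class in a library. Ascl2 itself (chromosome 7, 142966829 to 142969264, minus strand, mm10) had 287, 255, 293 and 232 CPM in members of mutant 1, mutant 2, WT 1 and WT 2. In Ascl2-positive, Il4-positive cells it had 295, 171, 233 and 239 CPM. Stx11, a syntaxin of granule exocytosis, had 271, 255, 357 and 305 CPM in members, against 148, 79.2, 47.5 and 77.9 CPM in other kept cells. Ctsl, a lysosomal protease, had 189, 31.8, 91.2 and 126 CPM, against 76.4, 17.2, 13.8 and 31.5 CPM. Rgs16, a brake on G protein signalling, had 127, 134, 104 and 97.4 CPM, against 53.9, 25.8, 29.0 and 36.2 CPM. Cd83, an activation marker, had 147, 50.9, 78.9 and 59.7 CPM, against 116, 49.1, 44.9 and 44.9 CPM. Stx11 and Rgs16 in every library of members lay above every library of other cells, whereas Ctsl and Cd83 overlapped between libraries. Summed with Ascl2, these markers had 1020, 726, 924 and 820 CPM in members. Ascl2-positive, Il4-positive cells had 1196, 677, 735 and 952 CPM in the same order, so the markers were not particular to members.

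Among Il4-negative cells, Cxcr5, Bcl6, Pdcd1, Il21, Tox2, Maf and Sostdc1 had lower levels at 0 than at 1 Ascl2 UMI in all 4 libraries. Icos ran the other way in mutant 2, with 131 CPM at 0 and 71.6 CPM at 1 Ascl2 UMI. In WT 1, Cxcr5 had 46.1, 204, 127 and 201 CPM in cells with 0, 1, 2 and 3 or more Ascl2 UMIs. In mutant 1 it had 49.2, 176, 203 and 247 CPM. Gpr183, an oxysterol receptor that draws activated T cells to the follicle border, had 254, 10.2, 0 and 42.2 CPM in WT 1 and 246, 21.7, 23.8 and 13.3 CPM in mutant 1, in the same order. These levels are a description with no test, and the classes of mutant 2 with 1, 2 and 3 or more Ascl2 UMIs rested on 6, 2 and 5 cells.

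**Figure D2:**
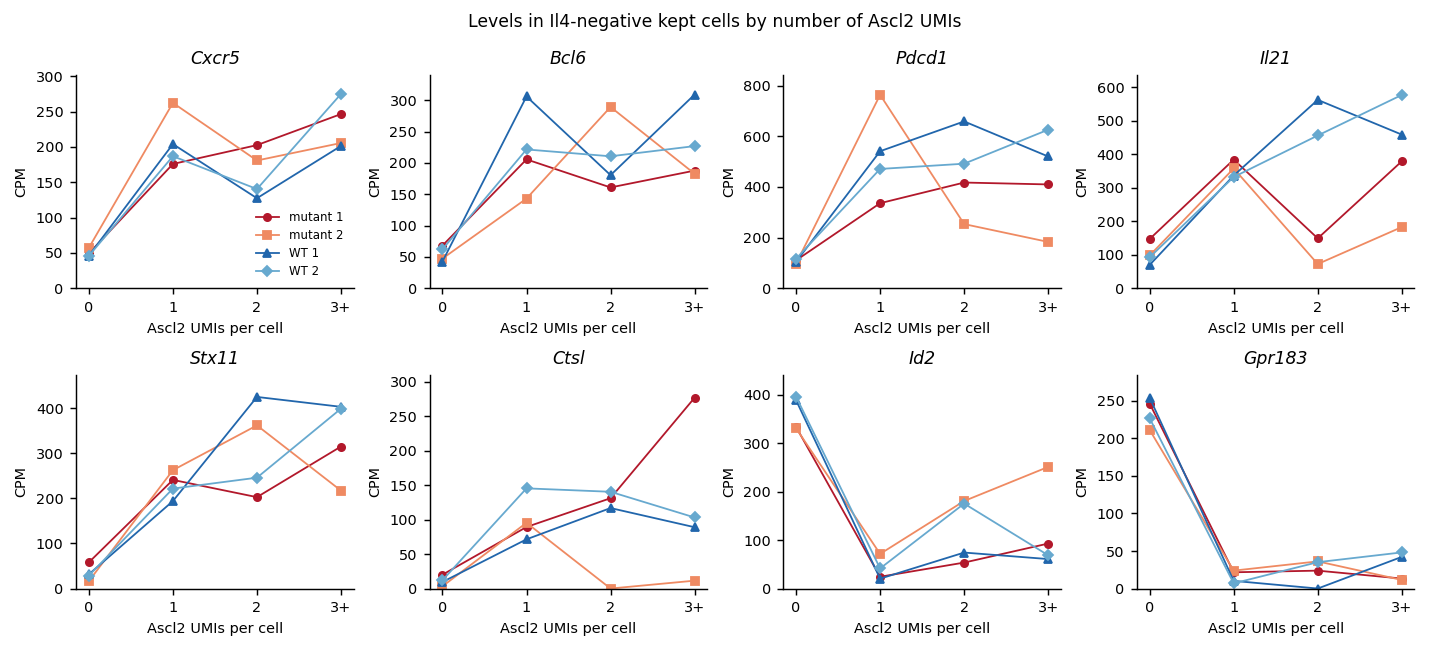
Level in CPM of 8 genes, in Il4-negative kept cells with 0, 1, 2 and 3 or more Ascl2 UMIs, with 1 line per library. Cxcr5, Bcl6, Pdcd1 and Stx11 lay lowest at 0 Ascl2 UMIs in every library, while Id2 and Gpr183 lay highest there in every library.

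Promoters were searched for the E-box CAGCTG, which reads the same on both strands. RefSeq promoters of the GRCm38.p6 assembly (mm10), 300 bases each from 250 before to 50 after a start site, held it in 16.3% of 32851 cases. Genes higher in members than in other kept cells, by the test described next, had the box in at least 1 promoter in 67 of 342 matched genes (19.6%). The numbers were 68 of 344 (19.8%) for genes lower in members and 1048 of 6578 (15.9%) for all tested genes. Genes that were higher and genes that were lower thus carried the box about equally often. Shown are promoters with the box of Stx11 (chr10:12964210-12964509), of Coro2b, an actin-binding coronin that was higher in members (chr9:62536995-62537294), and of Id2, which was lower (chr12:25096043-25096342). All are on the minus strand, printed 5′ to 3′ with the box in capitals, which starts at -44, -97 and -196 relative to the start site. A match of letters is not evidence of binding.
Stx11: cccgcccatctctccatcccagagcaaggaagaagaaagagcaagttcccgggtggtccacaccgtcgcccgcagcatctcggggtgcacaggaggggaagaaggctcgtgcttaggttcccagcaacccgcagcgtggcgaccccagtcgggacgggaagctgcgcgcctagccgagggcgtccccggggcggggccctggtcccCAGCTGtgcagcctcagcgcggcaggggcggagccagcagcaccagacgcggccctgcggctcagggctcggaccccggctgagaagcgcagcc
Coro2b: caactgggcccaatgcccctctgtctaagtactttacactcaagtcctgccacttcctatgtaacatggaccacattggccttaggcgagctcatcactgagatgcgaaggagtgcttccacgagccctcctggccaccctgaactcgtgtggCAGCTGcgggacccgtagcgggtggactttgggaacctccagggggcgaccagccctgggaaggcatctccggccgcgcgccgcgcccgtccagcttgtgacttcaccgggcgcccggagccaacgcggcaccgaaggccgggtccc
Id2: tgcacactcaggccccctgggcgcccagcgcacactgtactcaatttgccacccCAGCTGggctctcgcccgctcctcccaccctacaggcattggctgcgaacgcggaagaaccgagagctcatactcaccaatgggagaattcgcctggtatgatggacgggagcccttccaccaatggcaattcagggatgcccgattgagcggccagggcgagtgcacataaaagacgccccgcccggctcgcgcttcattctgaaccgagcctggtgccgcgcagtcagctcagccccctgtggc
The RefSeq promoters of Bcl6 held no such box in this window.

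Summed counts of members were then set against those of all other kept cells within each library. Tfh genes were higher in members, while receptors of recirculation and genes of T cell receptor response were lower. Of the 8225 tested genes, 30.5% moved the same way in all 4 libraries whether or not they passed. In edgeR's quasi-likelihood test with library as a block, 423 of 8225 tested genes were higher (5.14%) and 448 lower (5.45%) at a Benjamini-Hochberg adjusted p under 0.05, or 10.6% in either direction, and 22.2% had an unadjusted p under 0.05. Of the Tfh identity list, 11 of 21 tested genes were higher and 2 lower, with a median log2 fold change of 0.40, against -0.0046 over all tested genes. The counts fell to 229 higher and 278 lower without mutant 1, to 240 and 280 without WT 1, and to 249 and 263 without WT 2. At 4000 UMIs per cell 238 were higher and 327 lower.

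Among Tfh receptors, Cxcr5 (chromosome 9, 44511787 to 44561877, minus strand) had 215, 216, 185 and 223 CPM in members of mutant 1, mutant 2, WT 1 and WT 2, against 86.7, 90.8, 57.7 and 66.9 CPM in other kept cells. The classes did not overlap, at a log2 fold change of 1.43 ± 0.12 (SE; edgeR adjusted p = 5.45e-08). Pdcd1, the inhibitory receptor PD-1, had 385, 350.1, 557 and 543 CPM in members, against 215, 202, 147 and 203 CPM (log2 fold change 1.21 ± 0.14, edgeR adjusted p = 2.63e-06). S1pr2, which confines cells to the germinal centre through Gna13, had 67.6, 102, 104 and 123 CPM in members, against 32.1, 25.2, 16.9 and 23.8 CPM, a log2 fold change of 1.87 ± 0.22 (edgeR adjusted p = 5.71e-06). Gna13 itself rose by a log2 fold change of 1.42 ± 0.13, so both the receptor and its G protein were higher in every library. Icos, the costimulator, had 331, 134, 311 and 314 CPM, against 261, 160.1, 181 and 222 CPM. Mutant 2 ran the other way for Icos, and its log2 fold change of 0.37 ± 0.12 did not pass (edgeR adjusted p = 0.0509).

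Tfh transcription factors followed the same course. Bcl6 had 189.8, 191, 279 and 223 CPM in members, against 108, 80.4, 57.4 and 91.5 CPM in other kept cells (log2 fold change 1.33 ± 0.17, edgeR adjusted p = 9.72e-06). Tox2, which opens Tfh chromatin, rose by 1.50 ± 0.18 on the log2 scale, Pou2af1, a co-activator needed for germinal centre responses, by 1.36 ± 0.20, and Maf, which drives Il21, by 0.46 ± 0.09. Tcf7, the factor TCF-1 of early Tfh and memory cells, fell by 0.61 ± 0.11, and Slamf6, an adhesion receptor of Tfh cells, fell by 1.26 ± 0.12 on the log2 scale. Members were thus higher for some genes of the list and lower for others. The secreted factors Il21 and Sostdc1, a BMP antagonist made by Tfh cells, rose by 1.15 ± 0.16 and 1.23 ± 0.12. Il21 had 345, 210.0, 454 and 455 CPM in members, against 209.7, 165, 115 and 164 CPM in other kept cells.

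**Figure D3:**
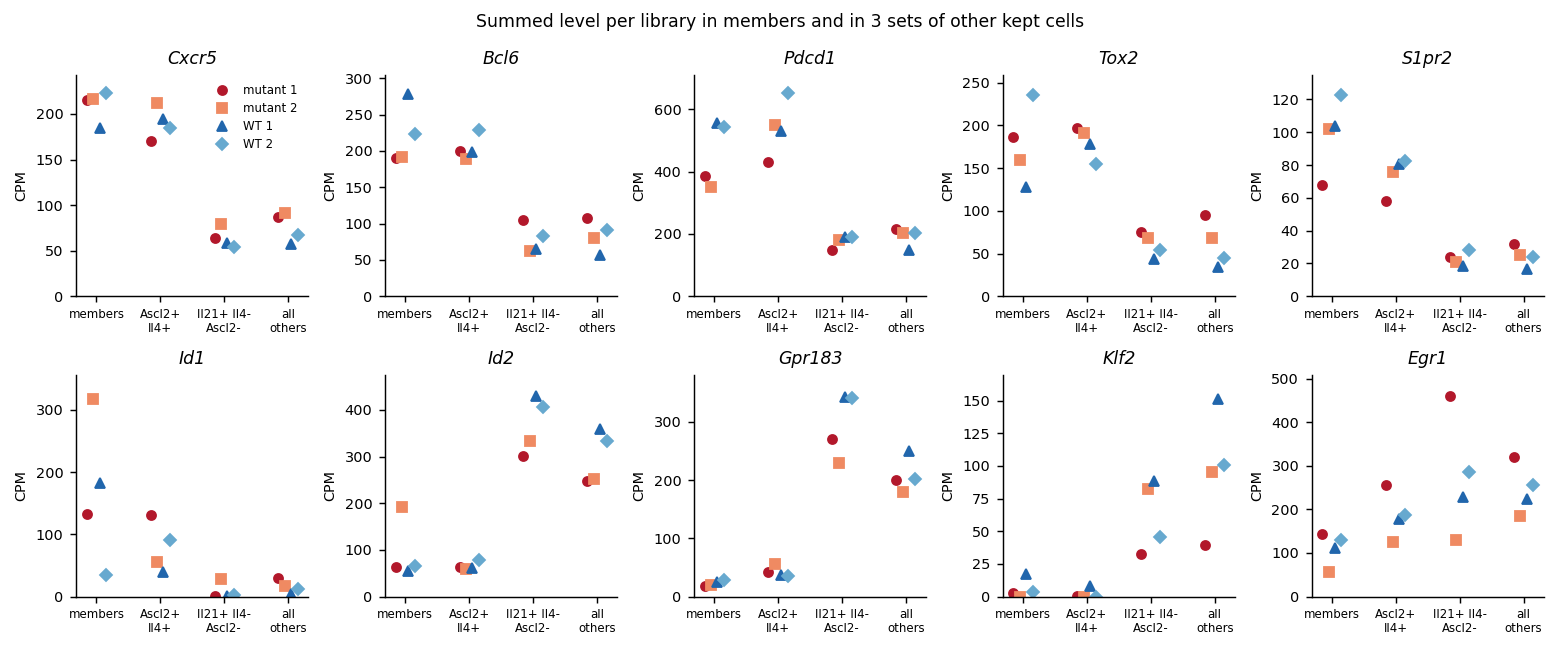
CPM per library of 10 genes in members, in Ascl2-positive Il4-positive cells, in Il21-positive cells without Il4 or Ascl2, and in all other kept cells, with 1 point per library. Members and Ascl2-positive Il4-positive cells lay close together for most genes, and both lay apart from the 2 sets on the right for Cxcr5, Bcl6, Pdcd1, Gpr183 and Klf2.

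Most receptors and factors of recirculation were lower in members. Of 10 tested genes of that list, 9 were lower and 1, Klf3, was higher, with a median log2 fold change of -2.47, which was the same with genes at 0 UMIs set to their bound. Il7r, the survival receptor of resting cells, had 0 UMIs in members. Taken against a floor of 3 counts over all members, it was at least 11.1-fold lower than in other kept cells. Klf2, which maintains S1pr1, had 2.82, 0, 17.3 and 3.14 CPM, against 39.8, 95.1, 152 and 101 CPM (log2 fold change -3.86 ± 0.29, edgeR adjusted p = 9.76e-09). Gpr183 (chromosome 14, 121952551 to 121965195, minus strand) had 17.8, 19.1, 24.7 and 28.3 CPM, against 200.3, 180.4, 251 and 202 CPM, a log2 fold change of -3.35 ± 0.17 (edgeR adjusted p = 8.52e-11). The highest library of members for Gpr183 was far below the lowest of other cells. Ccr7, the receptor for T zone chemokines, fell by 4.20 ± 0.39 and S1pr1, the egress receptor, by 2.43 ± 0.30 on the log2 scale. Satb1 fell by 2.51 ± 0.18 and Lef1 by 2.02 ± 0.15. Among 9 tested chemotactic receptors, Cxcr4, S1pr2 and Cxcr5 were higher, and S1pr1, Ccr9, Ccr7 and Gpr183 were lower. Selplg, a selectin ligand that Ascl2 lowers in mouse T cells, fell by 1.63 ± 0.21, whereas Il2rb, on the same list of 4 tested genes, rose by 0.50 ± 0.14. Il2rb passed in 8 of 13 alternatives, and its call was lost without mutant 1 or without WT 1, among others.

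Genes of the bHLH system moved in both directions. Id2, an inhibitor of E proteins, fell by 1.99 ± 0.21 on the log2 scale, with 62.9, 191, 54.2 and 66.0 CPM in members, against 247, 252, 359 and 334 CPM in other kept cells. Id1, another Id protein (chromosome 2, 152736251 to 152737410, plus strand), was the gene with the largest rise by the naming rule. It had 132, 318, 182 and 34.6 CPM in members, against 30.5, 16.6, 4.27 and 12.5 CPM, a log2 fold change of 3.22 ± 0.38 (edgeR adjusted p = 4.92e-06). Few member cells carried Id1, with a UMI in 24, 5, 12 and 5 cells of mutant 1, mutant 2, WT 1 and WT 2. The cell with most Id1 held 29.7% or more of the Id1 UMIs of members in every library. Bhlhe40 rose by 0.88 ± 0.17. In all, 2 of 8 tested genes of the list were higher and 1 was lower, with a median log2 fold change of 0.02. At 4000 UMIs per cell Bhlhe40 no longer passed.

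The other leading rises included Tmem121 (2.85 ± 0.29 on the log2 scale), Padi4, which turns arginine into citrulline in proteins (2.31 ± 0.22), Nfia, a nuclear factor I (2.20 ± 0.28), and Cebpa, a factor best known from myeloid cells (2.12 ± 0.18). Cebpa had 241, 306, 303 and 270.1 CPM in members, against 86.0, 77.3, 35.0 and 56.0 CPM in other kept cells, and was detected in 81.0%, 76.9%, 81.6% and 69.0% of members. Cebpa transcripts were thus present in most members of every library, and all 4 member libraries lay above all libraries of other cells. Coq8a, Dhx34, Smox, Dnase1l3, Coro2b and Ier5l rose by 1.86 to 2.04 on the log2 scale.

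The leading falls included 2 genes of cytotoxic T cells, Nkg7 and Eomes, among genes of other kinds. Nkg7, a granule protein, had 0 UMIs in members and was at least 42.5-fold lower than in other kept cells. Eomes had 3 UMIs in members and 1237 in other kept cells, a ratio of 0.0305 (95% counting interval 0.00629 to 0.0894). Tnfsf4, the OX40 ligand, had 2 UMIs and Gpr18, a receptor of recirculating lymphocytes, also 2, with ratios of 0.0159 (0.00192 to 0.0575) and 0.0204 (0.00246 to 0.0737) to other kept cells. Of 4 tested genes of the Th1 and cytotoxic list, Nkg7, Eomes and Id2 were lower and 0 higher. Cells with 2 or more detected genes of that list were nevertheless 38.5% of the 13 members of mutant 2, against 14.1% of other kept cells there. Sox4, Myb and the dynein gene Dnah8 fell by 3.18 ± 0.39, 3.14 ± 0.24 and 3.08 ± 0.26 on the log2 scale.

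T cell receptor response genes were lower on balance, with 9 of 15 tested lower and 1, Tnfrsf4, higher, and a median log2 fold change of -0.92. Egr1, an immediate target of receptor signals, had 144, 57.3, 111 and 129 CPM in members, against 319, 185, 224 and 257 CPM (log2 fold change -1.19 ± 0.12, edgeR adjusted p = 8.68e-07). Egr3 fell by 1.80 ± 0.19, Nr4a1 by 1.73 ± 0.26 and Egr2 by 0.92 ± 0.19. Of 17 tested immediate-early and heat shock genes, 7 were lower and 1 was higher, at a median of -0.27. Fos fell by 0.46 ± 0.13 and Hspa1a by 1.07 ± 0.18. Tnfrsf4, Fos and Egr2 passed in 9, 7 and 11 of 13 alternatives. Among the lost calls, those of Tnfrsf4 and Fos ended without mutant 1 or WT 1, that of Fos also without WT 2, and that of Egr2 without mutant 1. Such genes also respond to tissue handling, and their part in the result was not tested.

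Glycolytic genes were higher, with 11 of 16 higher and 0 lower at a median log2 fold change of 0.74. Aldoa had 1172, 1235, 1267 and 1052 CPM in members, against 680.0, 474, 419 and 439.5 CPM in other kept cells (log2 fold change 1.18 ± 0.11, edgeR adjusted p = 1.38e-07). Every library of members lay above every library of other cells. Tpi1 rose by 1.16 ± 0.11, Pkm by 1.02 ± 0.10, Gapdh by 0.73 ± 0.09 and the lactate exporter Slc16a3 by 1.81 ± 0.30. For S, G2 and M phase genes the count was 4 of 12 higher and 0 lower, at a median of 0.75. The 18 listed genes summed to 1160, 3323, 643 and 1187 CPM in members of mutant 1, mutant 2, WT 1 and WT 2. Other kept cells had 850, 703, 692 and 773 CPM, so WT 1 ran the other way and mutant 2 stood out. Cells with 2 or more UMIs of Mki67 and Top2a together, called cycling here, were 6 of 105, 2 of 13, 1 of 38 and 3 of 29 members, against 45 of 742, 19 of 177, 51 of 1198 and 32 of 585 other kept cells.

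Regulatory and inhibitory genes were mixed. Ctla4 rose by 0.96 ± 0.12, Ikzf2 by 0.56 ± 0.09, Itgb8, part of an integrin that activates TGF-beta, by 0.87 ± 0.23 and Cd160 by 0.64 ± 0.12. Izumo1r, the folate receptor FR4, fell by 1.06 ± 0.09 and Lag3 by 0.43 ± 0.11, and Gpr83, of regulatory T cells, had 2 UMIs in members. The type 2 factors Gata3 and Stat6 fell by 0.72 ± 0.19 and 0.64 ± 0.19, although Gata3 in mutant 2 ran the other way (70.0 CPM in members, 55.8 CPM in other kept cells). The calls of Gata3, Stat6, Itgb8 and Lag3 each ended without at least 1 of mutant 1, WT 1 and WT 2. They passed in 6, 6, 8 and 10 of 13 alternatives. Among RGS and G protein genes besides Rgs16, Rgs10, Gna13 and Gng2 were higher and Rgs1 was lower.

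Among markers of other cell types, those of B cells had a higher summed level in members. Of 14 B cell markers, 9, 5, 5 and 4 had a UMI in members of mutant 1, mutant 2, WT 1 and WT 2. Their summed level was 545 to 789 CPM, against 159 to 302 CPM in other kept cells. Nearly all of it was Ighm, the immunoglobulin M heavy chain locus, at 515, 757, 478 and 565 CPM in members, against 242, 269, 143 and 183 CPM (log2 fold change 1.41 ± 0.11, edgeR adjusted p = 1.08e-08). Ighm was seen in 84.6% to 100% of members per library. Of other B cell transcripts, Ms4a1 had 0 UMIs, H2-Aa 1 and Cd79b 2 UMIs over all members. They were scarce in other kept cells too, where Ms4a1 had 3 UMIs. Over all libraries H2-Aa had 0.514 CPM in members, against 0.572 CPM in other kept cells, and Cd79b 1.03 against 1.88 CPM. These transcripts thus did not set members apart. Cd79a, also on the list, was set to 0 by the filter in every kept cell. Pax5 also passed (1.83 ± 0.47, edgeR adjusted p = 0.0141) at 26.3, 0, 29.6 and 28.3 CPM, against 8.45, 17.2, 2.31 and 5.75 CPM, with mutant 2 going the other way. It passed in 7 of 11 alternatives, and its call ended without mutant 1, WT 1 or WT 2, among others. The part of B cell RNA in these values was not tested. The 10 NK and innate lymphoid markers summed to 340.1, 255, 444 and 477 CPM in members, against 374, 335, 421 and 419 CPM. Nearly all of that was Trdc, the constant region of the T cell receptor delta chain, which did not pass (log2 fold change -0.09 ± 0.10, edgeR adjusted p = 0.700), while Ncr1 and Klrb1c had 0 UMIs in members. Epithelial markers summed to at most 3.14 CPM and CD8 T cell markers to at most 9.42 CPM in members. The filter had set Epcam and Krt8, both on the epithelial list, to 0.

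**Figure D4:**
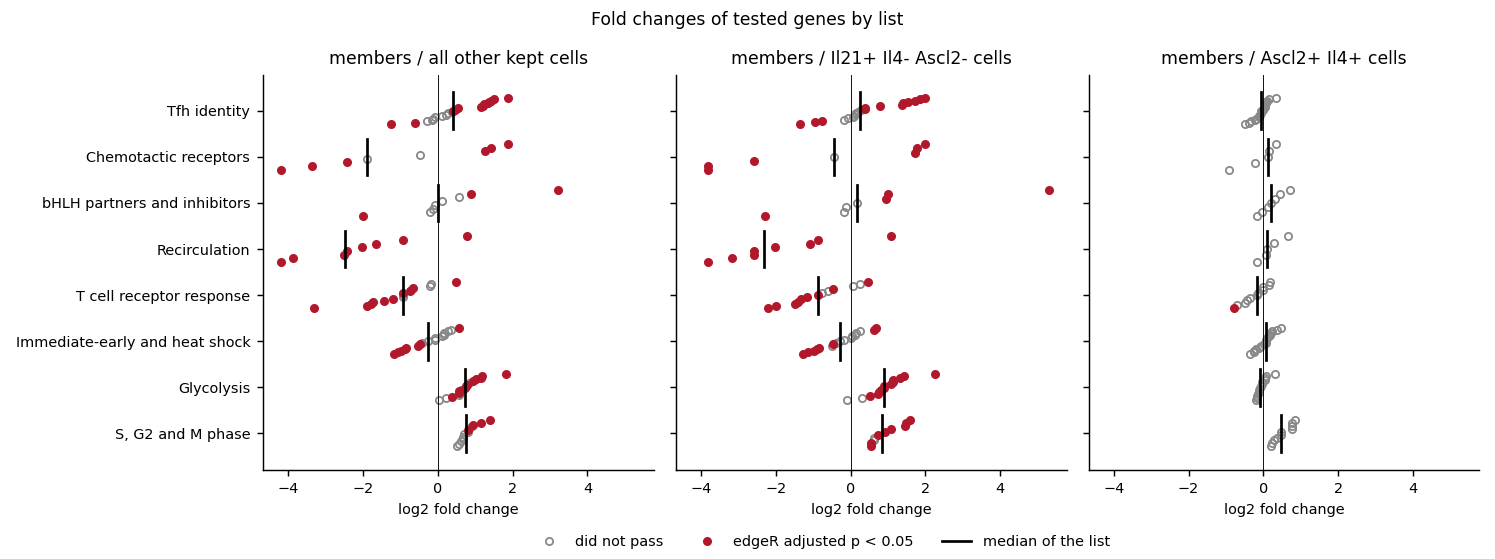
Log2 fold change of each tested gene of 8 lists, members over each of 3 other sets of cells. Filled points passed edgeR's test at an adjusted p under 0.05, open points did not, and bars mark medians over all tested genes of a list. The panel on the left does not draw 3 genes with 3 or fewer UMIs in members. Calls fill the left and middle panels, and 1 point, Egr1, is filled in the panel on the right.

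Il21-positive cells without Il4 or Ascl2 UMIs (555 cells) served as another set of helper cells. Against them, 571 of 6942 tested genes were higher in members (8.23%) and 491 lower (7.07%), or 15.3% in either direction, and 26.9% had an unadjusted p under 0.05. All libraries moved the same way for 32.6% of them. Of the Tfh list, 9 of 20 tested genes were higher and 3 lower, at a median log2 fold change of 0.24, against 0.00022 over all tested genes. Without mutant 1 the counts were 281 and 263, and at 4000 UMIs per cell 106 and 113. Cxcr5 had 215, 216, 185 and 223 CPM in members, against 63.9, 78.9, 58.8 and 54.0 CPM in the Il21-positive cells (log2 fold change 1.71 ± 0.15, edgeR adjusted p = 2.36e-14). The Il21-positive cells lay below every member library. Bcl6 rose by 1.40 ± 0.15, Tox2 by 1.52 ± 0.16, Pdcd1 by 1.38 ± 0.12 and Sostdc1 by 0.79 ± 0.13. Icos passed at 0.39 ± 0.12, with the libraries not all in 1 direction. It passed in 4 of 10 alternatives, and the call was lost without mutant 1, WT 1 or WT 2, among others. Maf did not pass, at 0.14 ± 0.09 (edgeR adjusted p = 0.356). Il21-positive cells without Ascl2 or Il4 UMIs thus had lower levels of Cxcr5, Bcl6, Tox2, Pdcd1 and Sostdc1 than members. Il21-positive cells as a whole were not compared.

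The largest rise in this comparison was again Id1, at 5.30 ± 0.31 on the log2 scale, followed by Padi4 at 3.68 ± 0.30. Id1 had 0.780, 27.4, 1.47 and 2.75 CPM in the Il21-positive cells. Smox, Fam71b and Cxxc5 rose by 3.14 ± 0.39, 2.93 ± 0.42 and 2.76 ± 0.20. Gpr183 had 17.8, 19.1, 24.7 and 28.3 CPM in members, against 271, 229.9, 342 and 341 CPM (log2 fold change -3.82 ± 0.19, edgeR adjusted p = 1.59e-24). Ahr, a ligand-activated factor, fell by 3.92 ± 0.49, Klf2 by 3.17 ± 0.36 and Satb1 by 2.59 ± 0.20. Egr1 fell by 1.40 ± 0.14 and Egr2 by 1.17 ± 0.20, though Egr2 did not pass without mutant 1. Glycolysis genes were higher for 12 of 14 tested, with Gapdh at 0.89 ± 0.09. Batf, an AP-1 factor of Tfh cells, rose by 0.68 ± 0.14, and Angptl2, a secreted factor of the Tfh list, fell by 0.95 ± 0.15. At 4000 UMIs per cell the calls of both ended, at 0.35 and -0.54 (edgeR adjusted p = 0.361 and 0.157). Gata3 fell by 0.69 ± 0.22 and passed in 5 of 10 alternatives. Without mutant 1, WT 1 or WT 2 its call ended while its log2 fold change stayed at -0.57, -0.64 and -0.64.

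Ascl2-positive cells with an Il4 UMI (277 cells) differed from members by few genes. Against them, 2 of 5823 tested genes were higher in members (0.0343%) and 3 lower (0.0515%), or 0.0859% in either direction, while 315 (5.41%) had an unadjusted p under 0.05, and DESeq2 called 0 in either direction. On simulated counts for this comparison edgeR recovered 84.8% of 2-fold changes. Those counts had the same dispersion for every gene, so recovery in these data may be lower. None of 21 tested Tfh genes passed, and their median log2 fold change was -0.05, against 0.006 over all tested genes. The 8 Tfh genes Bcl6, Cxcr5, Pdcd1, Icos, Il21, Tox2, Maf and Sostdc1 lay between -0.21 ± 0.10 for Pdcd1 and 0.16 ± 0.12 for Cxcr5. Bounds of 2 SE on either side reached from -0.40 to 0.40 over these genes. Il21 had 345, 210.0, 454 and 455 CPM in members, against 328, 372, 411 and 417 CPM in Ascl2-positive, Il4-positive cells, so the sets overlapped.

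Egr1 had the smallest p among the 5 genes that passed. It had 144, 57.3, 111 and 129 CPM in members, against 255, 125, 179 and 188 CPM in Ascl2-positive, Il4-positive cells, and was lower in members in 4 of 4 libraries (log2 fold change -0.78 ± 0.13, edgeR adjusted p = 0.00231). Movement in 1 direction in all libraries held for 14% of tested genes here. The call of Egr1 ended without mutant 1 (edgeR adjusted p = 0.0844), in cells with at most 5% mitochondrial UMIs (0.254) and with DESeq2 (DESeq2 adjusted p = 0.997). Ubac2, of protein quality control in the endoplasmic reticulum, fell by 0.58 ± 0.12. Its call ended without WT 1 or WT 2, without cycling cells, at 5% mitochondrial UMIs, at 4000 UMIs per cell and with DESeq2. The other genes, named after their values were seen, were Gm12840, which was lower, and Gm42418 and Hist1h2ap, a replication histone, which were higher. Hist1h2ap had 345, 185, 14.8 and 22.0 CPM in members, against 103, 40.7, 24.8 and 20.2 CPM, and was lower in WT 1. At 4000 UMIs per cell 0 genes were called in either direction, and without cycling cells, an alternative added after these data were seen, 0 were higher and 1 was lower. Without single libraries 2 to 9 genes were higher and 1 to 9 lower.

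Within members, mutant and WT cells differed by few genes at this depth. Of 5102 tested genes, 4 were higher (0.0784%) and 0 lower in mutant members (0%), with 225 (4.41%) at an unadjusted p under 0.05. DESeq2 called 4 higher and 0 lower. On simulated counts, 40.2% of 2-fold and 97.1% of 4-fold changes were recovered here, so differences near 2-fold could be missed. The simulated counts gave every gene the same dispersion, so recovery may be lower in these data, also for 4-fold changes. At 4000 UMIs per cell the counts were 0 and 1. Without single libraries 9 to 19 genes were higher and 0 to 3 lower. In every genotype comparison, leaving out a library leaves 1 genotype with a single library, which is assumed to vary like the other genotype, so calls gained or kept that way are weak evidence. The 4 genes were the replication histones Hist1h2ap, Hist1h1b and Hist1h2ae and the calmodulin-binding protein gene Nrgn.

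Hist1h2ap (chromosome 13, 21833026 to 21833507, minus strand) had 345 and 185 CPM in mutant members, against 14.8 and 22.0 CPM in WT members (log2 fold change 4.03 ± 0.40, edgeR adjusted p = 0.00131). Mutant and WT libraries did not overlap, which held for 33.1% of the tested genes. Reads of histone genes may be split between near-identical copies, so single members are uncertain. A single cell held 51.8% of its UMIs in mutant 1 and 75.9% in mutant 2. Over the 3 histone genes together, 93.5% and 75.9% of the UMIs of mutant 1 and mutant 2 lay in 6 and 2 cycling cells. Leaving out cycling cells, a choice made after these values were seen, left the 3 histone genes below the filter on low counts, so they were not tested there, and 1 gene, Nrgn, was higher in mutant members. At 4000 UMIs per cell they were not tested either. The cycling cells of WT 1 and WT 2 held 0% and 18.2% of these UMIs. Of 10 alternatives that tested them, Hist1h1b passed in 8 and Hist1h2ae in 9, and neither passed without mutant 1. The share of members with a UMI of Hist1h2ap was 14.3% and 38.5% in mutant libraries, against 13.2% and 17.2% in WT libraries.

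Nrgn (chromosome 9, 37544492 to 37552904, minus strand), known from neurons, had 109.9 and 165 CPM in mutant members, against 17.3 and 22.0 CPM in WT members (log2 fold change 2.73 ± 0.38, edgeR adjusted p = 0.0175). The counts were 117 and 26 UMIs from 28 and 6 mutant cells, against 7 and 7 UMIs from 4 and 4 WT cells. In other kept cells it had 111 and 159 CPM in mutant libraries, against 129 and 152 CPM in WT libraries, which overlapped. Ascl2-positive, Il4-positive cells had 45.0 and 78.4 CPM in mutant libraries, against 92.6 and 31.9 CPM in WT libraries. WT members thus had the lowest Nrgn of these sets. The call within members ended with 2 or more Ascl2 UMIs per member (edgeR adjusted p = 0.151) and at 4000 UMIs per cell (0.901).

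Genes that TGF-beta induces did not pass the test within members. Of 8 tested in members, 5 had a negative log2 fold change and 0 passed, with a median of -0.40, against 0.00081 over all tested genes. Pmepa1, which restrains TGF-beta receptors, had 41.3 and 31.8 CPM in mutant members, against 108 and 88.0 CPM in WT members, and the libraries did not overlap (log2 fold change -1.27 ± 0.32, edgeR adjusted p = 0.906). In other kept cells, 84 of 10501 genes were higher (0.8%) and 56 lower (0.533%), counts that ran from 17 to 307 and from 15 to 320 without single libraries. In either direction 1.33% were called, 13% had an unadjusted p under 0.05 and 46.1% had genotypes that did not overlap. There Pmepa1 had 39.8 and 36.8 CPM in mutant libraries, against 97.2 and 77.5 CPM in WT libraries (log2 fold change -1.20 ± 0.16, edgeR adjusted p = 0.000372). Skil, which restrains Smad factors, and Smad7, an inhibitor of the receptor, fell there by 0.75 ± 0.14 and 1.37 ± 0.20. Of 13 tested genes of the list in other kept cells, 9 had a negative log2 fold change and the rest a positive one. Values ran from -1.54 to 0.50. Fos had 65.8 and 50.9 CPM in mutant members, against 177 and 160.2 CPM in WT members (log2 fold change -1.39 ± 0.26, edgeR adjusted p = 0.158), and fell by 1.63 ± 0.19 in other kept cells. Mki67, a proliferation marker, had 55.4 and 191 CPM in mutant members, against 4.93 and 6.28 CPM in WT members (edgeR adjusted p = 0.166). Mki67 passed in 9 of 10 alternatives that tested it. These included DESeq2 and the fits without any 1 library, which had a lone library in 1 genotype. Cycling cells were 6 of 105 and 2 of 13 mutant members, against 1 of 38 and 3 of 29 WT members, and the shares overlapped. Fos passed within members in 4 of 12 alternatives, among them the fit without mutant 2, also with a lone library. In other kept cells Skil passed in 10 of 12 alternatives and did not pass without WT 1.

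**Figure D5:**
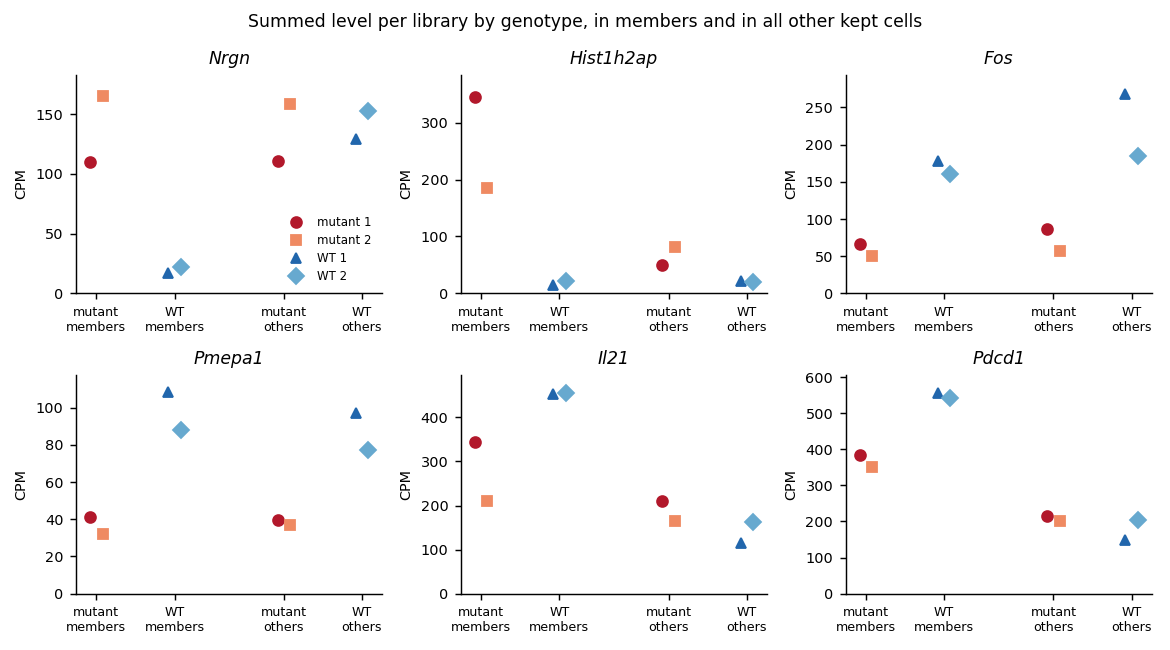
CPM per library of 6 genes in members (left pair of groups) and in all other kept cells (right pair), by genotype. WT members lay lowest for Nrgn, and both mutant libraries lay below both WT libraries for Fos and Pmepa1 in members and in other cells alike.

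The difference between the genotype effect in members and that in other kept cells was tested as an interaction. Of 8836 tested genes, 1 passed upwards (0.0113%) and 0 downwards (0%), with 345 (3.9%) at an unadjusted p under 0.05. DESeq2 called 1 higher and 0 lower. The gene was Nrgn, whose genotype effect (log2) exceeded that in other cells by 2.90 ± 0.36 (edgeR adjusted p = 0.000384). Recovery on simulated counts, with the same dispersion for every gene, was 10.3% for 2-fold and 71.3% for 4-fold differences. Smaller differences of this kind were thus mostly beyond reach. Without mutant 1, 28 genes passed upwards and 19 downwards, and without WT 2 15 and 15. The difference of Nrgn was 2.02 with members of 2 or more Ascl2 UMIs.

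The 8 Tfh genes named above all had a negative difference, between -1.10 for Il21 and -0.38 for Cxcr5, and 0 of them passed. The other kept cells included the Ascl2-positive, Il4-positive cells. Those made up 15.8% and 14.2% of kept cells in mutant 1 and mutant 2, against 5.18% and 8.47% in WT 1 and WT 2. The part of this unequal make-up in the differences was not tested. Il21 had 345 and 210.0 CPM in mutant members, against 454 and 455 CPM in WT members, and 209.7 and 165 CPM in other mutant cells, against 115 and 164 CPM in other WT cells. Mutant members lay below WT members, while the other mutant cells lay above the other WT cells, by a narrow margin for mutant 2 and WT 2 (difference -1.10 ± 0.23, edgeR adjusted p = 0.115). Pdcd1 had 385 and 350.1 CPM in mutant members, against 557 and 543 CPM in WT members (log2 fold change -0.52 ± 0.18, edgeR adjusted p = 1). Tox2 rose by 1.09 ± 0.17 in other mutant cells, and its difference between members and others was -1.08 ± 0.27 (edgeR adjusted p = 0.371). Stx11 and Atp1b1, a sodium pump subunit, had differences of -1.31 ± 0.28 and -1.36 ± 0.28 (edgeR adjusted p = 0.143 and 0.115). The difference of Il21 passed in 6 of 11 alternatives, and those of Stx11 and Atp1b1 in 5 of 11 each. Among these were fits with a lone library in 1 genotype. For Il21 they were without mutant 1, mutant 2 or WT 2, and for Stx11 and Atp1b1 without mutant 2 or WT 2. All of these differences stayed negative in every alternative. Tox2 in other kept cells passed in 10 of 12 alternatives and did not pass without WT 1.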

How the data were processed

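Deposited UMI counts per gene and barcode were used as the authors deposited them. The libraries were 10x Chromium Single Cell 3′ v2 per the labels' protocols, and the submitters' processing notes name Cell Ranger 6.0.0, Seurat 4 and mm10. Of 6 samples, 4 had count matrices, 2 mutant and 2 WT; the other 2 samples, of WT antibody tags, were not analysed as samples here. Cells were filtered as stated at the start, with no removal of doublets, which Scrublet (scanpy 1.11.5) called. Raw UMIs were summed per library and class of cells. Sums were tested with edgeR 4.0.16 (quasi-likelihood test, filterByExpr, TMM; R 4.3.3), with Benjamini-Hochberg adjustment over all tested genes at 0.05. Library was a block where classes of cells were compared, and genotype comparisons had none. SE is the log2 fold change divided by the square root of F. Total counts of kept cells were 7451355, 1786852, 11657859 and 5532953 UMIs in mutant 1, mutant 2, WT 1 and WT 2, and mutant 2 gave the least precise levels. Counting intervals are exact at 95%, and a count of 0 was bounded by 3 counts.

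Ascl2, Il4 and the genes of the filter were left out of the tested genes. The members, the gene lists and the tests were chosen with earlier results of these data known. Named genes were the 12 largest rises and 10 largest falls past the threshold that moved the same way in every library (for genotype, without overlap) at 20 CPM or more, list members that passed, and 8 Tfh genes in every case. Predicted, ribosomal, mitochondrial and receptor segment genes were not named by that rule. Alternatives were DESeq2 1.42.0, no filter on low counts, leaving out each library, Scrublet doublets, 5% mitochondrial UMIs, thinning to 4000 UMIs, 2 Ascl2 UMIs, Ascl2-negative Il4-negative cells as the comparison, other blocks and, added after the data were seen, leaving out cycling cells. The fits were tested on simulated counts that gave every gene the same dispersion. Gene positions are from GENCODE (mm10) and promoters from RefSeq GRCm38.p6. Results of some genes are not reported here.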

Additional observations from a re-analysis of the deposited data

Results flagged for a closer look

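The genotype effect on Nrgn differed between members and other kept cells by 2.90 on the log2 scale in the interaction test of edgeR (adjusted p = 0.000384), with 109.9 and 165 CPM in mutant members, against 17.3 and 22.0 CPM in WT members. The same libraries had 111 and 159 CPM in other mutant cells, against 129 and 152 CPM in other WT cells. The WT value of members rested on 14 UMIs in 8 cells.

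Antibody tag counts, which the comparisons did not use, were present in the WT libraries. A tag was called clear with at least 10 tag UMIs, of which at least 80% were of 1 tag. In WT 1, 34 of 38 members had a clear tag (11, 21 and 2 for the tags 301, 302 and 303), against 847 of 1198 other kept cells (319, 277 and 251). In WT 2, 23 of 29 members had one (9, 3 and 11), against 393 of 585 other kept cells (91, 49 and 253). Members had a median of 22.5 and 24 tag UMIs in WT 1 and WT 2, against 15 in other kept cells of each. What each tag stood for is not given in the sources used here, and no difference between tags was tested.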

How the results depend on the processing

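DESeq2 called 273 genes higher and 287 lower in members than in other kept cells, 0 and 0 against Ascl2-positive Il4-positive cells, 225 and 211 against Il21-positive cells, and 23 and 23 for genotype in other kept cells. Against cells with neither Ascl2 nor Il4 the counts were 772 and 714. Thinning to 4000 UMIs gave 238 higher against other kept cells, 0 and 0 against Ascl2-positive Il4-positive cells, 106 and 113 against Il21-positive cells, 0 and 1 for genotype in members, and 11 and 19 in other kept cells. Without a filter on low counts the counts were 12 and 10 against Ascl2-positive Il4-positive cells, 21 and 2 for genotype in members, 172 and 128 in other kept cells, and 10 and 10 for the interaction. At 5% mitochondrial UMIs they were 1 and 0 against Ascl2-positive Il4-positive cells, 1 lower for genotype in members, 42 and 37 in other kept cells, and 2 higher for the interaction. Without cycling cells they were 0 and 1 against Ascl2-positive Il4-positive cells, 1 higher for genotype in members and 6 lower for the interaction. With 2 or more Ascl2 UMIs the interaction gave 9 and 13, and shares of members were 7.44%, 3.68%, 2.10% and 2.28% in mutant 1, mutant 2, WT 1 and WT 2. Leaving out each library gave 229 to 445 higher and 263 to 483 lower against other kept cells, 2 to 9 and 1 to 9 against Ascl2-positive Il4-positive cells, 281 to 510 and 263 to 462 against Il21-positive cells, 9 to 19 and 0 to 3 for genotype in members, 17 to 307 and 15 to 320 in other kept cells, and 1 to 28 and 1 to 19 for the interaction. A sign changed for Il21 against Ascl2-positive Il4-positive cells (0.076 without mutant 2, 0.024 without cycling cells, and -0.093 to 0.076 over single libraries left out) and for Bcl6 (-0.058 without WT 1, in a range of -0.058 to 0.18). It also changed for genotype in members at 4000 UMIs (Il21 0.17, Sostdc1 -0.35) and for the interaction of Hist1h2ap (-0.53 at 4000 UMIs, -0.18 without cycling cells). None of these genes had passed in its comparison. In other kept cells, deviations from the genotype mean had a correlation of -0.00716 between libraries of equal replicate number. With 2 libraries per genotype both replicate numbers give the same value by construction, so it cannot decide whether the libraries were paired. With the replicate number as a block, 6 genes were higher and 0 lower in mutant members, where Mki67 was among those that now passed, and 151 were higher and 118 lower in other kept cells. The cause of these changes was not tested. With 13 members in mutant 2, differences near 2-fold between genotypes were often beyond reach.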
